A study of Mus musculus with 4 samples.

Results

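The Tal, Lyl1, Lmo and Ldb1 genes comprised 8 genes of the 21911 protein-coding genes of the mouse annotation: Tal1, Tal2, Lyl1, Lmo1, Lmo2, Lmo3, Lmo4 and Ldb1. They were chosen by name, as the genes of the Tal/Lmo complex of blood together with their paralogs, and the peaks described are those in a gene of the set or within 10 kb of it. H3K27me3, the trimethylation that Polycomb repressive complex 2 places on lysine 27 of histone H3, had been mapped by CUT&RUN, in which an antibody directs a nuclease to its target and the released DNA is sequenced. The cells were erythro-myeloid progenitors (EMPs) sorted from the C57BL/6 yolk sac at E10.5. All libraries carried the genotype label Ezh2fl/fl; Tie2-Cre+/+ with the words wild type, where Tie2-Cre is a Cre recombinase driven by an endothelial promoter, and were treated here as wild-type cells, which is how the study describes them. There was 1 H3K27me3 library from 500 EMPs and 1 from 15000 EMPs, each with an IgG library as background, so no replicate check was possible. Cell number was confounded with the instrument, the read length (76 bp and 59 bp), the number of PCR cycles (17 and 16) and the p-value threshold of the peak calls (0.01 and 0.05, for 500 and 15000 EMPs respectively). Per the methods of the study, the library from the smaller cell number also had fewer reads and a much lower alignment rate. None of the differences between the libraries can be told apart from these.

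The peak files used here gave positions without read counts or scores, so a peak was either listed or not, and neither its height nor the reads behind it could be given. A gene without a peak is a gene at which none was called in that library. Of the 4 genes of the EMP sorting gate, Kit, Itga2b, Fcgr3 and Fcgr2b, none had a peak less than 3 kb from the gene start, in 500 or in 15000 EMPs, beside 9.94% and 17.0% of all protein-coding genes. Fcgr3 had a peak 4.12 kb from its start with 500 EMPs and 4.06 kb from it with 15000 EMPs, and thus within 10 kb of the gene in both libraries. Of 4 endothelial genes, Cdh5, Pecam1, Kdr and Tek, 1 had a peak within 3 kb of its start with 15000 EMPs. This was Kdr, over 274 bp, and with 500 EMPs 0 had one, beside the same shares. In the gene or within 10 kb, Kdr alone had a peak with 15000 EMPs, beside 25.0% of all protein-coding genes. With 500 EMPs Pecam1 alone had one, beside 15.1%. Peaks report no transcript level, so the identity of the cells rests on the sort.

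As background, Tal1, also called Scl, is a basic helix-loop-helix (bHLH) protein that binds DNA as a dimer with an E protein such as those from Tcf3 and Tcf12. Lmo2, a protein of LIM domains without a DNA-binding domain, bridges this dimer to a Gata factor, and Ldb1 holds the assembly together and joins distant sites. Tal1 and Lmo2 are required for the formation of blood in the embryo, and Lyl1, the closest blood relative of Tal1, shares part of its function. Tal2 is best known from the developing midbrain, and Lmo1 and Lmo3 from neurons, whereas Lmo4 and Ldb1 are expressed broadly. Genes of either kind, among them Tal1, Tal2, Lyl1, Lmo1 and Lmo2, are switched on by rearrangements in T-cell leukaemia. From this knowledge, Tal1, Lyl1 and Lmo2 were called blood paralogs, Tal2, Lmo1 and Lmo3 neural paralogs, and Lmo4 and Ldb1 broadly expressed genes.

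The sequences that carry the contrast are given first. They are the 250 bases before a start and, for Lmo3, the peak called in both libraries, with every CpG dinucleotide in capitals, since Polycomb is known to act at CpG-rich DNA. All are written 5′ to 3′ along the strand of the gene, and the build is GRCm38 (mm10). Those of Tal2, Lmo1, the outer start of Lmo3, Tal1 and Lyl1 come from RefSeq promoters, a table that matched 7 of the 8 genes by symbol and not Lmo2. The rest was read from the genome. The stretch of Tal2 ends at 53779700, a few bases short of the annotated start at 53779705 that is used below. The first 3 lie wholly or partly in a 15000-EMP peak, and the next 3 lie in no peak of either library.
Tal2, chr4:53779451-53779700, plus strand: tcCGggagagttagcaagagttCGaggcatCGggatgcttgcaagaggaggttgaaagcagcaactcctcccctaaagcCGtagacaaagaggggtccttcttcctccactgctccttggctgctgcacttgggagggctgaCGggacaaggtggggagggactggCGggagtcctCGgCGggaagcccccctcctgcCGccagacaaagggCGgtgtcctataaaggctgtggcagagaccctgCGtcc
Lmo1, chr7:109175208-109175457, minus strand: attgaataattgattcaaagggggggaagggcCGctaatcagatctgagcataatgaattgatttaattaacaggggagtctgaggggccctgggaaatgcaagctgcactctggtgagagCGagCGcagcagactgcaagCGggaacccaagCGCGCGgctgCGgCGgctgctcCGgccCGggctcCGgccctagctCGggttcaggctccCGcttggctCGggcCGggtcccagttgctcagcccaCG
Lmo3-203, an inner start of Lmo3, chr6:138423000-138423249, minus strand: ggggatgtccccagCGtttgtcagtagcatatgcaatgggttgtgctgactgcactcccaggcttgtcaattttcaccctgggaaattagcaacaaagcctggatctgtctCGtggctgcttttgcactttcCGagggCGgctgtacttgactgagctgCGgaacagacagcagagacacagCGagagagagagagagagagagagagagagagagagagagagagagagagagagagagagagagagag
Lmo3, outer start, chr6:138581969-138582218, minus strand: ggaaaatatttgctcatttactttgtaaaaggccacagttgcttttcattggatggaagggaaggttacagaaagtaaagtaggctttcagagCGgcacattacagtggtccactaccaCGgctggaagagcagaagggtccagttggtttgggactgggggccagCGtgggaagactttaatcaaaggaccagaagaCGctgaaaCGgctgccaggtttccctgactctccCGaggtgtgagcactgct
Tal1, chr4:115056176-115056425, plus strand: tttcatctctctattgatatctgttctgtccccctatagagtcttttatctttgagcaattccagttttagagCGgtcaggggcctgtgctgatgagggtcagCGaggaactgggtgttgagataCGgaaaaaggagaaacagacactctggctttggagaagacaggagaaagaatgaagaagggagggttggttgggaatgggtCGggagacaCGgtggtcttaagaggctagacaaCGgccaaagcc
Lyl1, chr8:84701207-84701456, plus strand: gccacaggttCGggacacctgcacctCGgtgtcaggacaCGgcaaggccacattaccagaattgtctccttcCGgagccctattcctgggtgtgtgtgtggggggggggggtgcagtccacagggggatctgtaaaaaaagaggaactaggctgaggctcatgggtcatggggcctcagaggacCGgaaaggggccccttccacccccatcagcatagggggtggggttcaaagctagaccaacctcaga
Lmo3 intron, peak with 500 EMPs, chr6:138420929-138421085, minus strand: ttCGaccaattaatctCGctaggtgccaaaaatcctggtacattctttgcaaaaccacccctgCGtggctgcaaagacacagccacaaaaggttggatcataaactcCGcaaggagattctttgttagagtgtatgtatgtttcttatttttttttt

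Across the set, H3K27me3 peaks lay at all 3 neural paralogs and at none of the blood paralogs or broadly expressed genes. A peak in the gene or within 10 kb was found with 15000 EMPs at 3 of the 8 genes, namely Tal2, Lmo1 and Lmo3, beside 25.0% of all protein-coding genes. With 500 EMPs it was found at 1 of the 8 genes, Lmo3, beside 15.1% of all protein-coding genes. With 8 genes these counts say little about the set as a whole, but within it the peaks were unevenly placed. The groups of 3, 3 and 2 genes are too small, and were chosen with too much known, for a test between them. The genes also differ in length, from 3259 bp at Lyl1 to 219051 bp at Lmo3, and a long gene offers more room for a peak.

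In total, 11 of the 15282 peaks with 15000 EMPs and 1 of the 10223 peaks with 500 EMPs belonged to the set. The 11 peaks were 239 to 2404 bp wide, beside a median of 770 bp over all peaks of that library, and covered 10999 bp.

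**Figure D1:**
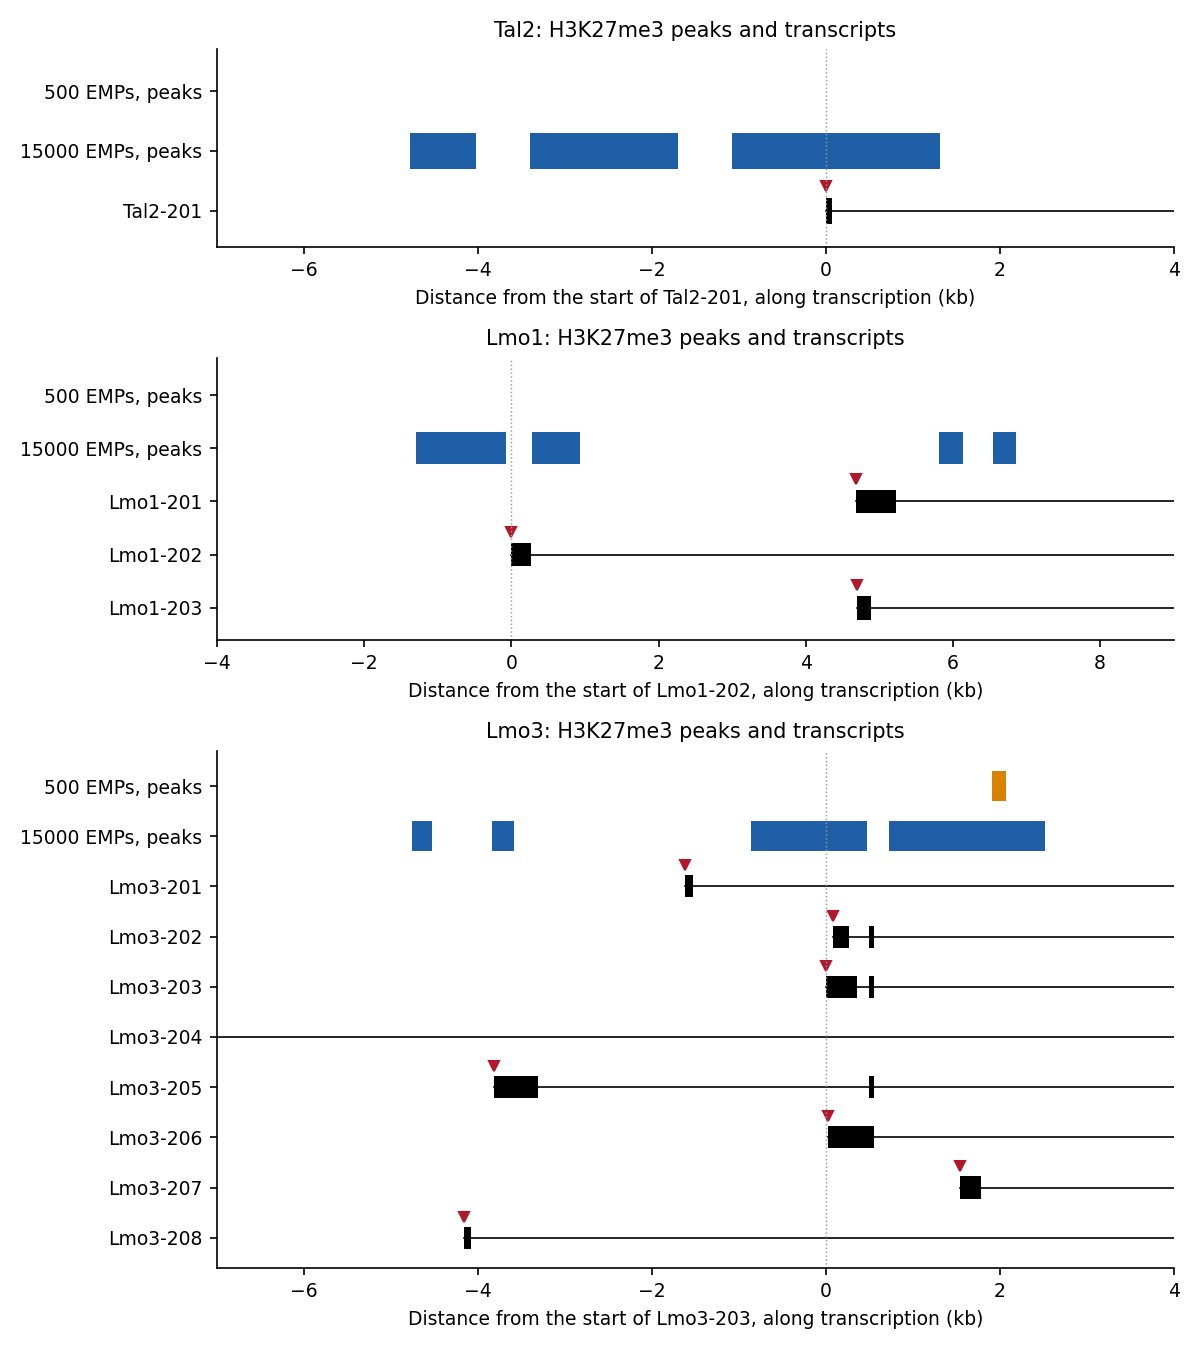
H3K27me3 peaks at the 3 neural paralogs. The horizontal axis gives the distance in kb from the start of 1 named transcript, along the direction of transcription. Orange and blue boxes are peaks with 500 and 15000 EMPs, black boxes are exons, lines are introns and red triangles are transcript starts. Peaks span the start of Tal2, lie on both sides of the outer start of Lmo1, and cluster over the inner starts of Lmo3, where the only 500-EMP peak lies. The outer start of Lmo3, that of Lmo3-204, is beyond the panel.

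Tal2 encodes a short bHLH protein related to Tal1. The gene occupies chr4:53779705-53788712 on the plus strand and has 1 annotated transcript. With 15000 EMPs, a peak of 2404 bp (chr4:53778620-53781023) spanned its start, including the first exon, which is untranslated. It held the whole of the 250 bases printed above. Another peak, of 1711 bp (chr4:53776300-53778010) ended 1695 bp before the start, and a farther one of 752 bp (chr4:53774926-53775677) ended 4028 bp before it. The gaps between the 3 peaks measured 622 and 609 bp, and joining peaks within 1 kb made a single stretch of them.

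In the window of 6001 bp centred on the start of Tal2, that is 3 kb on each side, peaks covered 3710 bp (61.8%) with 15000 EMPs and 0 bp with 500 EMPs. This was the most covered start in the set. Among the 3726 protein-coding genes with any covered base in this window with 15000 EMPs, 65.1% had less than Tal2, and the median was 2744.5 bp. With 500 EMPs the nearest peak to Tal2 was 337 kb away.

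Lmo1, a LIM-only protein close in kind to Lmo2 and Lmo3, was marked on both sides of its outer start. The gene lies on the minus strand at chr7:109138572-109175207, and its outer start, that of Lmo1-202, is at 109175207. With 15000 EMPs, a peak of 1234 bp (chr7:109175277-109176510) began 70 bp upstream of this start, and a peak of 653 bp (chr7:109174275-109174927) lay 280 bp downstream of it in the first intron. The start itself was in the gap of 349 bp between them, so that 181 of the 250 bases printed above were covered. A pair of narrow peaks, of 315 bp (chr7:109169077-109169391) and 316 bp (chr7:109168354-109168669), lay in an intron beyond the inner starts, the nearer of them 1121 bp from the start of Lmo1-203.

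Peaks covered 1887 bp (31.4%) of the window around the outer start of Lmo1 with 15000 EMPs and 0 bp with 500 EMPs. The covered length was below the median of the covered genes, of which 34.6% had less. With 500 EMPs the nearest peak was 126 kb from the gene.

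Lmo3 is the LIM-only gene with the widest spread of starts. The gene lies on the minus strand at chr6:138362918-138581968 and has 8 annotated transcripts, each with its own start. At the outer start, 138581968, no peak lay within 3 kb in either library, and the nearest was 154 kb away with 15000 EMPs and 161 kb away with 500 EMPs. The peaks lay at the inner starts instead. With 15000 EMPs, a peak of 1785 bp (chr6:138420484-138422268) held the start of Lmo3-207, and a peak of 1340 bp (chr6:138422523-138423862) held the starts of Lmo3-206, Lmo3-202 and Lmo3-203. A narrow peak of 250 bp (chr6:138426589-138426838) held the start of Lmo3-205, and another of 239 bp (chr6:138427524-138427762) lay in an intron, 362 bp from the start of Lmo3-208. In all, 5 of the 8 starts lay inside a peak and 7 of the 8 within 3 kb of one.

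The only peak of the set with 500 EMPs was also at Lmo3. It measured 157 bp (chr6:138420929-138421085), lay in an intron 367 bp downstream of the start of Lmo3-207, and was contained in the 1785-bp peak of the other library. It was narrow for its list, in which 20.7% of peaks were narrower and the smallest width was 137 bp. Its sequence, printed above, holds 4 CpG.

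Lmo3 was not named in the annotated table of either library. All 5 of its peaks were paired there with A830011K09Rik, an antisense gene of unknown function on the opposite strand at chr6:138423105-138429592. Of the 8 starts of Lmo3, those of Lmo3-201, Lmo3-205 and Lmo3-208 lie within it, whereas the 4 starts held by the peaks of 1785 and 1340 bp lie outside it. The 500-EMP peak stood in the table as 2018 bp upstream of this antisense gene, and the 1340-bp peak as overlapping its start. Peak positions carry no strand, so the share of either gene in these peaks cannot be told apart. Rows of the table with a gene of the set numbered 7 of 15810 with 15000 EMPs, 3 for Tal2 and 4 for Lmo1, and 0 of 10516 with 500 EMPs.

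The choice of start therefore sets the count. With the outermost start of each gene and a limit of 3 kb, the limit that the study used for targets, 2 of the 8 genes had a peak with 15000 EMPs, Tal2 and Lmo1, beside 17.0% of all protein-coding genes. None had one with 500 EMPs, beside 9.94%. With any annotated transcript start, Lmo3 was added in both libraries, which made 3 of 8 with 15000 EMPs, beside 18.6%, and 1 of 8 with 500 EMPs, beside 11.1%. By the distance column of the tables, the genes within 3 kb were Tal2 and Lmo1 with 15000 EMPs, beside 16.6%, and none with 500 EMPs, beside 9.67%.

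The blood paralogs had no peak. Tal1 lies at chr4:115056426-115071755, and its nearest peak was 61.5 kb from the gene with 15000 EMPs and 129 kb with 500 EMPs. For Lyl1, at chr8:84701457-84704715, the distances were 66.2 kb and 66.8 kb. For Lmo2, at chr2:103957986-103981878, they were 311 kb in both libraries. Thus 0 of these 3 genes had a peak within 10 kb of the gene, inner starts included, beside 25.0% of all protein-coding genes with 15000 EMPs and 15.1% with 500 EMPs. Most protein-coding genes had none either, so this count does not set the blood paralogs apart from genes at large.

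The broadly expressed genes had none either. Ldb1, at chr19:46031570-46045214, encodes the adaptor of the complex and had its nearest peak 85.2 kb away with 15000 EMPs and 87.6 kb away with 500 EMPs. Lmo4, at chr3:144188530-144205220, lay farthest from any peak, at 1082 kb and 1087 kb. A distance of this size was uncommon among protein-coding genes, since 93.5% had a nearer peak with 15000 EMPs and 86.7% with 500 EMPs. For Tal1, Lyl1 and Ldb1 the corresponding shares with 15000 EMPs ranged from 45.6% to 51.4%. Lmo2 lay farther out, with 77.4% of genes nearer to a peak with 15000 EMPs and 62.7% with 500 EMPs.

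**Figure D2:**
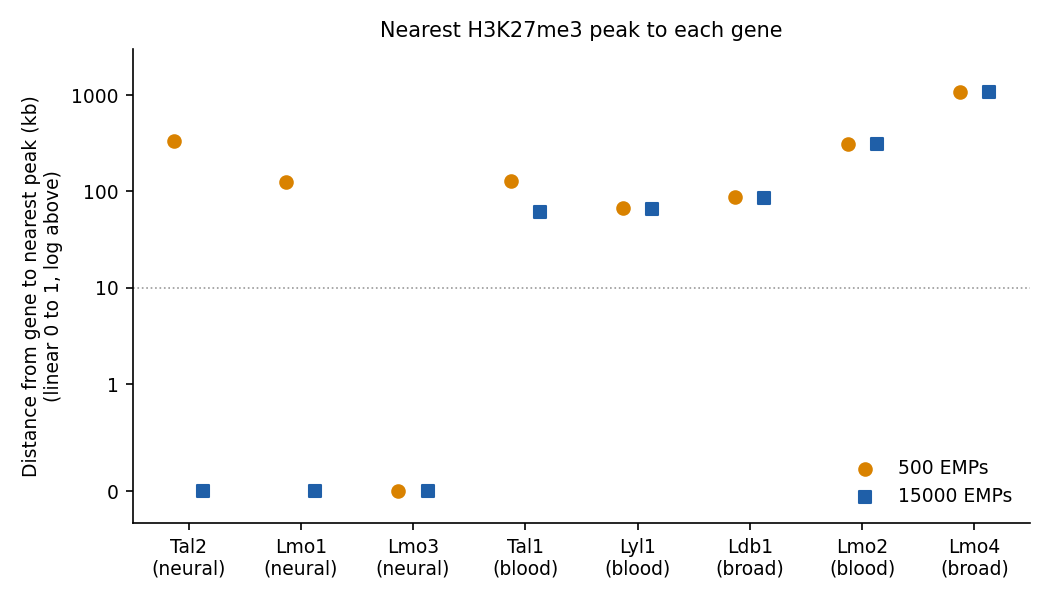
Distance in kb from each of the 8 genes to the nearest H3K27me3 peak, with 500 EMPs (circles) and 15000 EMPs (squares). The vertical axis is linear from 0 to 1 kb and logarithmic above, 0 stands for a peak in the gene, and the dotted line marks 10 kb. The 3 neural paralogs lie at 0 with 15000 EMPs, and the 5 other genes lie between 61.5 and 1082 kb. With 500 EMPs only Lmo3 lies at 0.

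The libraries were then set side by side at the peaks of the set. The 1 peak with 500 EMPs overlapped a 15000-EMP peak by all of its 157 bp, and 91.2% of all 10223 peaks of its library overlapped one too. In the reverse direction, 1 of 11 peaks was overlapped (9.09%, 95% exact binomial interval 0.23 to 41.3%, counting error only), beside 32.2% over all 15282 peaks of the 15000-EMP library. The interval holds the value over all peaks, and neighbouring peaks are not independent. The marks at Tal2 and Lmo1 thus rest on the 15000-EMP library alone, called at the more lenient threshold, and only the inner-start region of Lmo3 was found in both.

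Because CpG density was not used to choose the genes, it was measured at their starts as the CpG ratio, the observed number of CpG over that expected from the C and G content, in 500 bp on each side. At the gene start the ratio was 0.797 for Lmo1, 0.441 for Tal2 and 0.320 for Lmo3. It was 0.804 for Tal1, 0.396 for Lyl1 and 0.165 for Lmo2 among the blood paralogs, and 0.898 for Lmo4 and 0.875 for Ldb1. The starts with and without a peak therefore overlapped in this measure.

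The CpG-richest starts of the set were among those without a peak. Lmo2 has CpG-rich inner starts, with a ratio of up to 0.905 at Lmo2-203, 12143 bp from the outermost one, and they too had no peak within 3 kb. The 6 starts that lay inside a 15000-EMP peak, 1 of Tal2 and 5 of Lmo3, had ratios from 0.346 to 0.441. Another 22 starts of Tal1, Lmo2, Lmo4 and Ldb1 had a higher ratio than all of these and no peak within 3 kb. Several starts of either kind lie a few bases apart and share nearly the same sequence. The 3 starts of Lmo1, with ratios from 0.589 to 0.797, belong to neither kind, since they lay outside the peaks but within 3 kb of one. That of Lmo1-202, with 0.797, lay 70 bp from a peak. By the 3-kb rule on both sides, the 11 starts with a peak had ratios from 0.284 to 0.797. The 29 starts without one had ratios from 0.165 to 0.920, so the ranges overlapped. Over all protein-coding genes with 15000 EMPs, 21.5% of those with a ratio of at least 0.6 at the start had a peak within 3 kb, beside 13.2% of those below 0.6. With 500 EMPs these shares were 13.5% and 6.89%. Of the 4 genes of the set with a ratio of at least 0.6, Lmo1 alone had such a peak with 15000 EMPs and 0 had one with 500 EMPs.

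**Figure D3:**
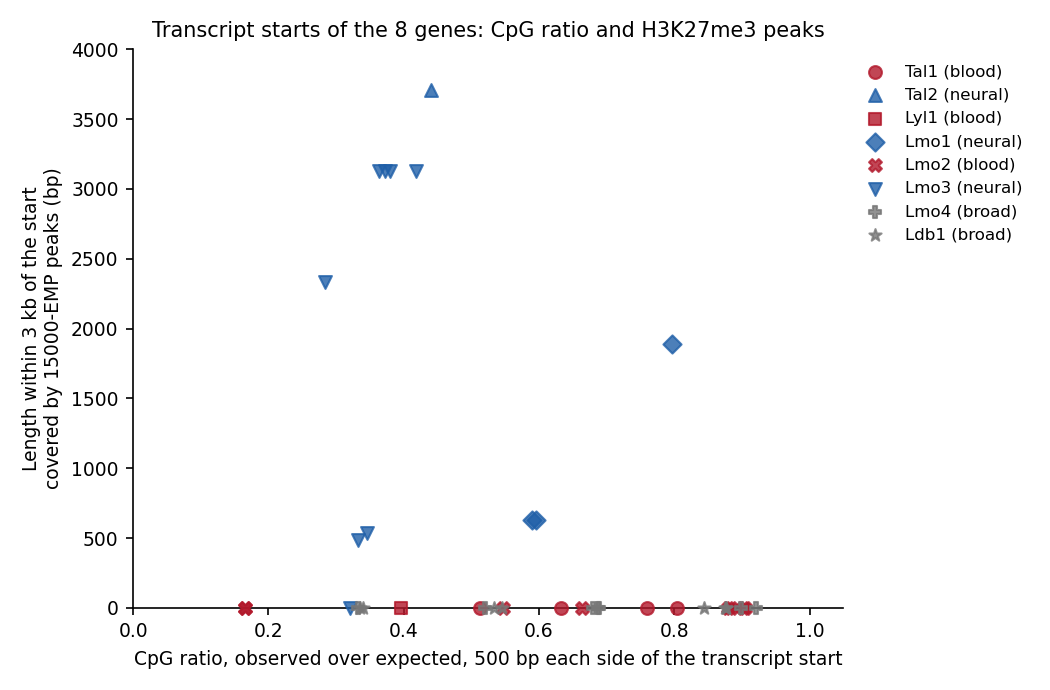
CpG ratio (horizontal axis, observed over expected) and length in bp covered by 15000-EMP peaks within 3 kb (vertical axis) at the 40 distinct transcript starts of the 8 genes. Colours mark blood paralogs (red), neural paralogs (blue) and broadly expressed genes (grey), and symbols mark genes. The starts with the highest ratios, up to 0.920, lie at 0 bp. The covered starts of Tal2 and Lmo3 lie at ratios of 0.441 or less, and those of Lmo1 at 0.589 to 0.797.

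The printed sequences can also be read by their CpG number. The 250 bases before the start held 11 CpG at Tal2 and 17 at Lmo1, and 35.6% and 23.5% of the RefSeq promoters had at least as many over this length. The inner and outer sequences of Lmo3 held 6 CpG each, the number at Tal1 as well, which 50.4% of promoters reached. Lyl1 held 5. The covered and the uncovered upstream sequence of Lmo3 thus did not differ in CpG number.

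The other genes of the complex were mostly without a peak as well. Among 12 partners, namely the E proteins Tcf3, Tcf4 and Tcf12, Gata1, Gata2, Gata3, the Ldb1 paralog Ldb2, the Ldb1-binding proteins Ssbp2, Ssbp3 and Ssbp4, and the corepressor components Cbfa2t3 and Kdm1a, 2 had a peak within 3 kb of the gene start with 15000 EMPs (16.7%). This share was near the background of 17.0%. The 2 genes were Gata2, a factor of blood progenitors, covered over 2334 bp, and Gata3, a factor of T cells and other lineages, covered over 5764 bp. With 500 EMPs, Gata3 alone had peaks, over 3194 bp, which made 8.33% of the partners beside a background of 9.94%.

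Tal1, Lyl1 and Lmo2 are known to bind together with Gata2, Runx1, Fli1 and Erg in blood progenitors, a group called the heptad. Of these 4 other factors, Runx1 had none within 3 kb of its start with 500 or 15000 EMPs. With 15000 EMPs, peaks covered 4041 bp at Erg, 2334 bp at Gata2 and 454 bp at Fli1, and with 500 EMPs 434 bp at Erg alone. The peak at Fli1 lay 2.55 kb from its start, near the edge of the window of 3 kb, and was lost from a window of 1 kb. Erg and Fli1 are ETS factors that endothelium also uses. Of all 7 factors, Tal1, Lyl1, Lmo2 and Runx1 had no such peak in either library. The counts of 3 of the 4 other factors with 15000 EMPs and 1 of 4 with 500 EMPs stand beside 17.0% and 9.94% of all protein-coding genes, and 4 genes are too few to read them against these shares.

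Other relatives and Ldb1-binding factors outside the set were then examined. Nhlh1 and Nhlh2, bHLH genes of the nervous system related to Tal1, were covered over 2114 bp and 5326 bp with 15000 EMPs, and Nhlh2 over 2445 bp and Nhlh1 over 0 bp with 500 EMPs. All 12 genes for the LIM-homeodomain proteins that bind Ldb1, of the Lhx, Isl and Lmx1 families, had a peak within 3 kb of the gene start in both libraries, beside 17.0% of all protein-coding genes with 15000 EMPs and 9.94% with 500 EMPs. Genes of this kind were listed for their link to Ldb1, with earlier results of these data known, and nothing particular to the list was tested. Their median covered length was 4773.5 bp with 15000 EMPs (range 2574 to 6001 bp) and 3319.5 bp with 500 EMPs (range 243 to 4652 bp). Tal2, the most covered gene of the set at its start, lay within this range with 15000 EMPs, and Lmo1 lay below it.

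**Figure D4:**
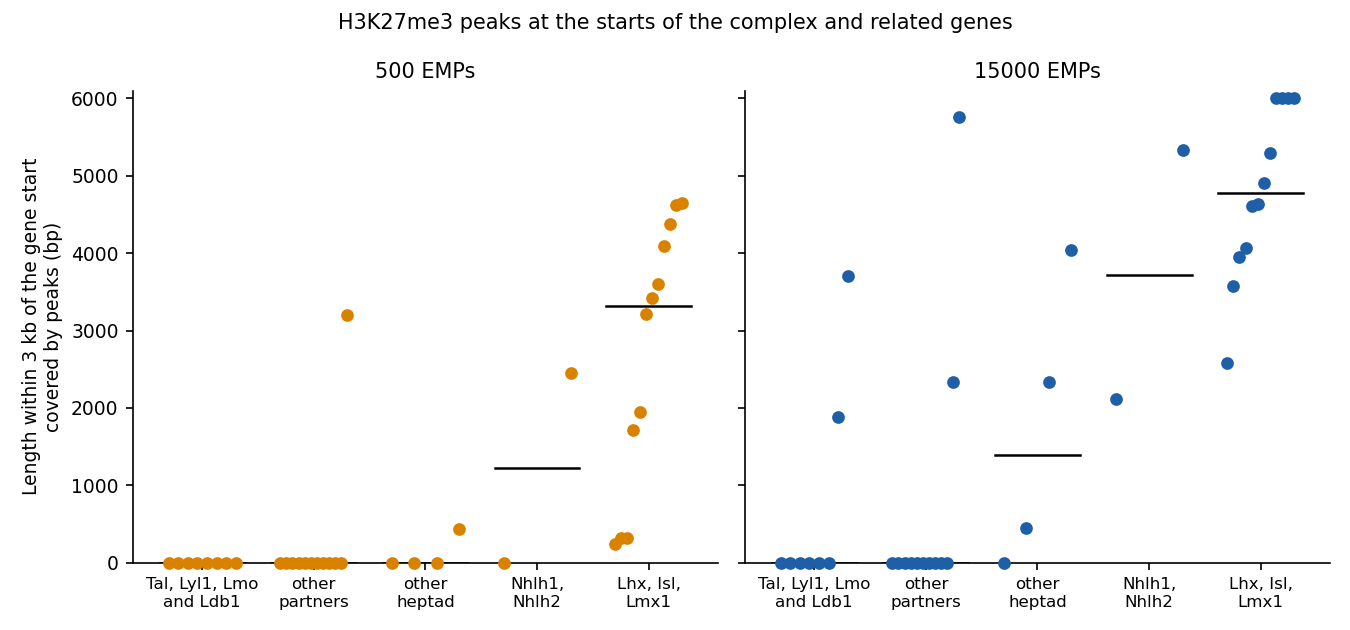
Length in bp within 3 kb of the gene start that peaks covered, with 500 EMPs (left) and 15000 EMPs (right), for the 8 genes of the set, 12 partners, 4 other heptad factors, Nhlh1 and Nhlh2, and 12 LIM-homeodomain genes. Points are genes in order of value and lines are medians. Gata2 is in 2 lists. In the set, only Tal2 (3710 bp) and Lmo1 (1887 bp) lie above 0, and only with 15000 EMPs, whereas all LIM-homeodomain genes lie above 0 in both libraries.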

How the data were processed

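H3K27me3 CUT&RUN peak lists of 2 libraries, from 500 and 15000 E10.5 yolk sac EMPs, were analysed. The authors aligned reads to mm10 (GRCm38) with Bowtie2 2.2.1, called broad peaks with MACS2 2.1.2 for each library separately and annotated them with ChIPpeakAnno. In their command listing the input libraries of the 2 thresholds appear exchanged, and each deposited list was used under its own label. The deposited peak files used here hold positions and distances in bp, without counts. Signal tracks were not used here. No IgG peaks were used here.

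Positions were made 1-based, and 0 peaks ran past a chromosome end of the reference. Genes and transcript starts came from GENCODE vM21, with 1 gene kept per symbol. The gene start is the outermost annotated 5′ end. Peaks overlapped when they shared at least 1 bp. Covered lengths, distances and CpG ratios were computed with pandas 2.3.3 and pysam 0.24.0 after the interval functions had been tested on simulated intervals. The members and lists were chosen with earlier results of these data known. All 8 members are named, and list genes with a peak where a list had 6 or fewer. Likeness to other genes was to be given for members covered at the gene start in both libraries, of which there were 0. With 1 library per group, no test between libraries or genes was made.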

Additional observations from a re-analysis of the deposited data

How the results depend on the processing

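The counts of genes with a peak, by paralog group and by list, the genes named in the tables and the shares of overlapping peaks gave 22 values. Of their 72 alternatives, 68 stayed within a ratio of 1.5. Many of these 68 were 0 and stayed 0, and a change of exactly 1.5 counted as unmoved. With 15000 EMPs and any transcript start, such changes took the genes of the set and the neural paralogs each from 2 to 3. In a window of 1 kb, the other heptad factors with a peak fell from 3 to 2. The alternatives that moved beyond 1.5 concern few peaks. With peaks of at least 500 bp, 0 genes of the set had a peak in the gene or within 10 kb with 500 EMPs, since the peak at Lmo3 is narrower. With any transcript start, 1 gene of the set and 1 neural paralog had a peak within 3 kb with 500 EMPs, in place of 0. When at least 50% of the query peak had to be shared, 0% of the 15000-EMP peaks of the set overlapped a 500-EMP peak. The flank of 50 kb, the covered length around any transcript start and the CpG ratio over 250 bp on each side were chosen after seeing the data. The number of genes with a peak was 3 with 15000 EMPs at all flanks run, from the gene body alone to 50 kb. Among 104 alternatives for single genes, 12 moved by over 1.5 times, by window size, joining or choice of start. All 12 were at Tal2, Lmo1 and Lmo3, the genes with a peak. Most of the others were 0 where no peak lay and stayed 0, so they could hardly move. With 15000 EMPs, joining within 3 kb took the number of peaks from 3 to 1 at Tal2. It took this number from 4 to 2 at Lmo1 and from 4 to 1 at Lmo3. In a window of 1 kb, peaks covered 100% at Tal2 and 79.2% at Lmo1 with 15000 EMPs, and in a window of 10 kb 24.3% and 12.6%. No paired analysis was possible because each group has 1 library. The peak files used here carry no read counts, so a gene without a peak may have been missed in either library. Read depth was lower in the library from the smaller cell number, and its part in these counts was not tested.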

Other observations

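Other genes with peaks at a transcript start were, like Lmo3, not named in the annotated tables. With 15000 EMPs, 4065 protein-coding genes had a peak within 3 kb of any annotated transcript start, and 262 of them (6.45%) were named nowhere in the annotated table, at any distance. For 115 of these 262 genes, Lmo3 among them, a transcript start lay inside a peak, and for 29 of the 115 the table paired the peaks at such starts with noncoding genes alone. With 500 EMPs, 160 of 2422 genes (6.61%) were not named, 20 of them with a start inside a peak. Genes with a peak at an inner start but none within 3 kb of the outermost start numbered 339 (8.34%) with 15000 EMPs and 245 (10.1%) with 500 EMPs.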
